A study of Mus musculus with 20 samples.

Results

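Places in the genome where the H3K27me3 demethylase JMJD3 was found during reprogramming of mouse fibroblasts, but where no KLF4 peak was centred, and which were no longer called when KLF4 was lowered, are described here by their genes, their sequence and the H3K27me3 around them. Chromatin immunoprecipitation and sequencing (ChIP-seq) gave 14067 positions of FLAG-tagged JMJD3 in cells that received OCT4, SOX2, KLF4 and c-MYC (OSKM), each deposited as a single base. Positions were selected on 2 measured distances. No KLF4 peak midpoint from either KLF4 library could lie within 400 bp, and no JMJD3 position of cells with low KLF4 (OSlowKM) could lie within 400 bp. This left 7803 of the 14067 positions, called KLF4-apart lost positions from here on. The name says only that no KLF4 midpoint was called within 400 bp. Measured from the edges of the KLF4 intervals instead, the same rule left 53.1% of the positions in place of 55.5%. Of the others, 1197 had no KLF4 but were also called with low KLF4 (KLF4-apart kept positions), 4450 had KLF4 and were not called with low KLF4 (KLF4-near lost positions), and 617 had both.

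Both JMJD3 libraries came from wild-type (WT) mouse embryonic fibroblasts (MEFs) of strain C57BL/6J-OG2 at day 5 after viral delivery of the factors, with FLAG-JMJD3 overexpressed, in medium with vitamin C. They differed in the KLF4 virus, full or reduced in volume according to the study. The 2 KLF4 libraries were day 5 WT OSKM cells with a FLAG control vector or with JMJD3. According to the study, these cells and the OSKM cells of the H3K27me3 libraries also had vitamin C in the medium. The 10 H3K27me3 libraries were untreated MEFs of WT (Jmjd3+/+) and knockout (KO, Jmjd3-/-) genotype, and OSKM cells of both genotypes at day 5 and day 10 with FLAG or JMJD3; the KO strain label was C57Bl6J, so strain and genotype cannot be told apart. Of 20 samples, 14 had a peak list and 6 (4 inputs and 2 H3K27ac samples) were not used here. Every group had 1 library, so no difference below has a replicate check and no p-value is given. The tagged JMJD3 was expressed from a virus, and the antibody read the tag, so endogenous JMJD3 was not measured.

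JMJD3, encoded by Kdm6b, is a demethylase of lysine 27 on histone H3. Its substrate, the trimethyl mark H3K27me3, is placed by Polycomb complexes and marks silent developmental genes. JMJD3 has no sequence preference of the kind that transcription factors have, so it reaches its loci with other proteins. SOX2 and OCT4 are DNA-binding factors that in pluripotent cells often occupy enhancers side by side, KLF4 binds GC-rich boxes, and AP-1 (FOS and JUN dimers) is the prevalent enhancer factor of fibroblasts.

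The values of the rule itself carry no test. The closest KLF4 midpoint to any KLF4-apart lost position was 401 bp away and the farthest among the excluded lost positions was 400 bp away. The median distance to KLF4 was 42050 bp, against 63.0 bp at the KLF4-near lost positions. Within 1000 bp of KLF4 there were still 748 of the selected positions (9.59%). The closest low-KLF4 JMJD3 position was 402 bp away and the median distance was 298700 bp. Over all OSKM positions 87.1% were not called with low KLF4, whose list held 2284 positions. The share was 86.7% of the 9000 positions without KLF4 and 87.8% of the 5067 positions with it, and nothing about dependence on KLF4 is read from these shares.

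Sequences of 7 windows show what the positions look like. Each is 200 bases of GRCm38 (the same assembly as mm10) from the plus strand, 5′ to 3′, centred on the JMJD3 position, with matches to the SOX, OCT, AP-1, KLF and SOX-OCT motifs in capitals. None overlaps an annotated untranslated region. The window near Sema3d, a secreted axon guidance factor, is shown because it holds the SOX-OCT composite, in which the SOX letters CATTGT and the OCT letters ATGNNAAT lie up to 3 bases apart on one strand. Of the 15 windows with the composite, it was the only one whose nearest gene was on a gene list described below. It lay in an annotated intron, 183269 bp from the nearest Sema3d start.
Sema3d, chr5:12566675-12566874: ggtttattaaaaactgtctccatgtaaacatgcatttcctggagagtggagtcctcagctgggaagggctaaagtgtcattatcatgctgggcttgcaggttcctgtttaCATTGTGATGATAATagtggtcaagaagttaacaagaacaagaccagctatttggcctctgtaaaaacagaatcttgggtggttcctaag
The windows near Skil, a SMAD co-repressor, and Krt8, a keratin of simple epithelia, are the AP-1 windows closest to a transcription start site (TSS) of a listed gene, 949 and 952 bp away. The Krt8 window holds 2 AP-1 matches, and an H3K27me3 peak was called within 5 kb of it in WT and KO MEFs but in none of the 8 OSKM lists.
Skil, chr3:31094009-31094208: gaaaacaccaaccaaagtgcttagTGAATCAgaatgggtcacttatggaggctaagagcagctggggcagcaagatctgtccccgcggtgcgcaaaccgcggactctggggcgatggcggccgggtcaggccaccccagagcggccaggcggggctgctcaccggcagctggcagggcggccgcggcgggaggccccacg
Krt8, chr15:102005334-102005533: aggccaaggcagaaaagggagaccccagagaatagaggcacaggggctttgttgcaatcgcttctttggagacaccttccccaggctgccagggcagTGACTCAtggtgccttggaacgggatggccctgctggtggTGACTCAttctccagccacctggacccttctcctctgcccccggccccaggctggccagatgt
The next windows, chosen after the values were seen, are the 3 closest to a listed gene with both a SOX and an OCT match. They lie in introns 6979 bp from a start of Mapk10 (the kinase JNK3), 12421 bp from Sox9 (in a transcript other than Sox9) and 96465 bp from a start of Tead1, a DNA-binding partner of YAP. The Tead1 window also holds AP-1.
Mapk10, chr5:103019916-103020115: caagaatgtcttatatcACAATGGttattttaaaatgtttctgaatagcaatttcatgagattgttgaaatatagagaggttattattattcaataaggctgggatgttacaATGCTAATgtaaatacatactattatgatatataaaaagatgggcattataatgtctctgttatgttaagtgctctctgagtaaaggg
Sox9, chr11:112769703-112769902: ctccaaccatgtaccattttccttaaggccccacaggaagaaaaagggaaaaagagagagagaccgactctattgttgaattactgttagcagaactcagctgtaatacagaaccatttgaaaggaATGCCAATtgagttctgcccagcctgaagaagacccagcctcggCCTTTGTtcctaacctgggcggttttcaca
Tead1, chr7:112855848-112856047: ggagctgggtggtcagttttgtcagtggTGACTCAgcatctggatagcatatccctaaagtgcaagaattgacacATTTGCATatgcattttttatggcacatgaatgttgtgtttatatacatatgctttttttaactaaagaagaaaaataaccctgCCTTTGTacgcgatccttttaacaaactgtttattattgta
The last window, also chosen after the values were seen, is from a promoter position and was picked for its KLF match. It is not typical, since 13.9% of the 1645 positions within 1 kb of a TSS held a KLF match. Also, of the 748 positions 401 to 1000 bp from a KLF4 midpoint, 77.9% were within 1 kb of a TSS. The window lies 243 bp upstream of Tcf7l2, which carries the Wnt signal to DNA, and is 46038 bp from the nearest KLF4 midpoint.
Tcf7l2, chr19:55741477-55741676: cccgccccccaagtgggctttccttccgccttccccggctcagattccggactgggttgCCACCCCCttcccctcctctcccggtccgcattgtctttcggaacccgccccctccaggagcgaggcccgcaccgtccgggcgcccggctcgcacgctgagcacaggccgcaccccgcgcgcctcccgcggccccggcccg

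The KLF4-apart lost positions were mostly far from genes' starts. Their median distance to the nearest TSS was 13.3 kb (quartiles 1.84 and 40.4 kb), against 1.94 kb for KLF4-near lost positions and 16.7 kb for KLF4-apart kept positions. To the nearest protein-coding TSS the medians were 37.8, 5.04 and 52.9 kb. Within 1 kb of a TSS lay 1645 (21.1%, 95% Wilson interval 20.2 to 22.0), and within 5 kb lay 2655 (34.0%). The share within 5 kb differed by -22.8 percentage points from the 56.8% of KLF4-near lost positions (95% Newcombe interval of the difference -24.6 to -21.0) and by 2.95 points from the 31.1% of KLF4-apart kept positions (0.0729 to 5.72). The first difference depended on the distance in the rule, at -12.2 points with 200 bp and -32.1 with 1000 bp. These intervals cover counting error only, and neighbouring positions are not independent. Beyond 1 kb, 3074 (39.4% of all 7803) lay in introns, 2919 (37.4%) between genes and 165 (2.11%) in exons. Introns held 12.1 points (10.4 to 13.8) more than among KLF4-near lost positions, and sequence between genes 13.6 points (11.9 to 15.2) more. Both differences go with the smaller share within 1 kb of a TSS, 21.1% against 46.7%. Among positions beyond 1 kb, introns held 3074 of 6158, against 1215 of 2374 KLF4-near lost ones. That is no larger share, so the positions show no separate preference for introns.

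**Figure D1:**
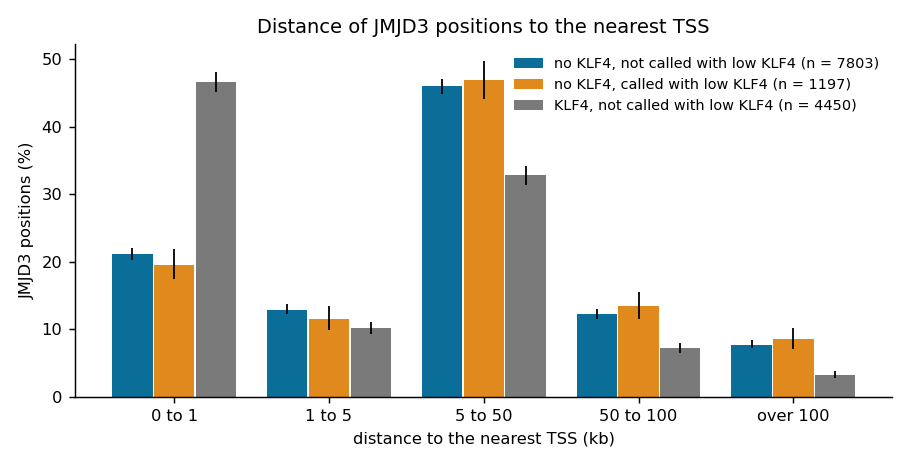
Share of JMJD3 positions (y axis, percent) by distance to the nearest TSS in kb (x axis) for KLF4-apart lost (blue), KLF4-apart kept (orange) and KLF4-near lost positions (grey), with 95% Wilson intervals. In the bin of 0 to 1 kb the blue bar is at 21.1% and the grey bar at 46.7%, and the blue bar stands close to the orange one in all 5 bins.

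By chromosome the KLF4-apart lost positions ranged from 2.42 to 3.66 per Mb on the autosomes. Chromosome X held 172, which is 1.01 per Mb. All classes were sparse there, with 218 JMJD3 positions in all, but the KLF4-apart lost ones made up 78.9% of these, against 49.7% to 61.0% on single autosomes. As a share of their own class, this was 1.53 points (1.11 to 1.93) above the 0.674% of KLF4-near lost positions. Against KLF4-apart kept positions (1.34%) the difference of 0.868 points had an interval of -0.00996 to 1.49.

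The positions were mostly isolated, with a median of 69.8 kb to the next one of the same kind. Only 333 (4.27%) had another within 1 kb. Joining neighbours up to 12.5 kb apart gave 4 runs of at least 5. The longest in number held 6 positions over 11.5 kb at chr4:29082824-29094279, in no protein-coding gene, with the nearest protein-coding start that of Epha7, 269574 bp or more away. A run of 5 covered 22.7 kb around Kdm6b itself (chr11:69395888-69418579). The other runs of 5 lay at Zfp608 (14.6 kb) and Gse1 (6.09 kb). At Kdm6b, 4 positions had this gene as the nearest one. They lay 1946 and 4904 bp upstream, in an intron 2856 bp downstream, and on an exon 7207 bp downstream. In that order, their nearest KLF4 midpoints were 2033, 432, 5169 and 818 bp away. The JMJD3 virus carried the mouse Jmjd3 coding sequence, and how far its reads placed the exon position was not tested.

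Base composition differed between the positions within 1 kb of a TSS and those farther out, as it did in the other classes. Over all 7803 windows of 200 bp the GC content was 45.8% ± 13.0 (mean ± SD over windows), against 56.9% ± 14.2 at KLF4-near lost positions, 45.4% ± 13.2 at KLF4-apart kept positions, and 41.7% on average over the genome. The 1645 windows within 1 kb of a TSS had 65.0% ± 11.4 GC and 16.7 CpGs each. Of them 73.5% were CpG-rich (GC above 50% and an observed-to-expected CpG ratio above 0.6). The 6158 windows farther out had 40.7% ± 7.42 GC and 1.78 CpGs each, and 1.72% of them were CpG-rich. Their GC content was slightly below that of windows 2 kb to either side (42.1%), while KLF4-near lost positions over 1 kb from a TSS (46.5%) were above theirs (44.2%). Within 1 kb of a TSS the GC content was 68.7% at KLF4-near lost and 66.2% at KLF4-apart kept positions, and farther out 46.5% and 40.4%. Repeat-masked sequence filled 20.8% of distal windows on average, against 19.0% at distal KLF4-near lost positions.

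The sequence at the KLF4-apart lost positions was rich in SOX, OCT and AP-1 motifs. Motifs were fixed letters searched on both strands, where N is any base: CCATTGT or CCTTTGT for SOX, ATGCNAAT for OCT, TGANTCA for AP-1 and GGGNGTGG for KLF. The first SOX motif contains the SOX letters of the composite. A match is a description of the letters and not a bound site. SOX was in 1552 of 7803 windows (19.9%), against 7.23% of windows 2 kb to either side and 7.58% of all genome windows of that length. OCT was in 640 (8.20%), against 2.76% and 3.24%. AP-1 was in 951 (12.2%), against 6.27% and 5.94%. KLF was in 781 (10.0%), against 5.31% and 4.55%. Each difference from the flanks exceeded its counting interval: 12.7 points (11.7 to 13.6) for SOX, 5.44 (4.79 to 6.12) for OCT, 5.92 (5.11 to 6.75) for AP-1 and 4.70 (3.96 to 5.46) for KLF. In windows of the 200 bp before RefSeq starts the shares were 6.42% for SOX, 2.41% for OCT, 5.48% for AP-1 and 13.8% for KLF. At least 1 of the 4 motifs was in 3311 windows (42.4%), so most windows held none of them.

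The SOX, OCT and AP-1 matches were mostly at distal positions. Over 1 kb from a TSS, SOX was in 23.0% of windows (7.44% in flanks), OCT in 9.95% (2.92%) and AP-1 in 14.5% (6.15%). Within 1 kb, SOX was in 8.09% (6.47%), OCT in 1.64% (2.16%) and AP-1 in 3.53%, below the 6.72% of its flanks. KLF was above its flanks in both, at 8.96% against 4.77% in distal and 13.9% against 7.36% in promoter windows. Among promoter windows the ETS motif CCGGAAGT stood at 1.03% against 0.152%, 17 windows in all, and the CTCF motif AGNGGGCGC at 2.37% against 0.365%, 39 windows. Those flanks had 44.3% GC on average. In the windows before RefSeq starts ETS stood at 2.68%, CTCF at 2.14% and KLF at 13.8%, so the promoter positions were not above promoters in general for ETS and close to them for CTCF and KLF.

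**Figure D2:**
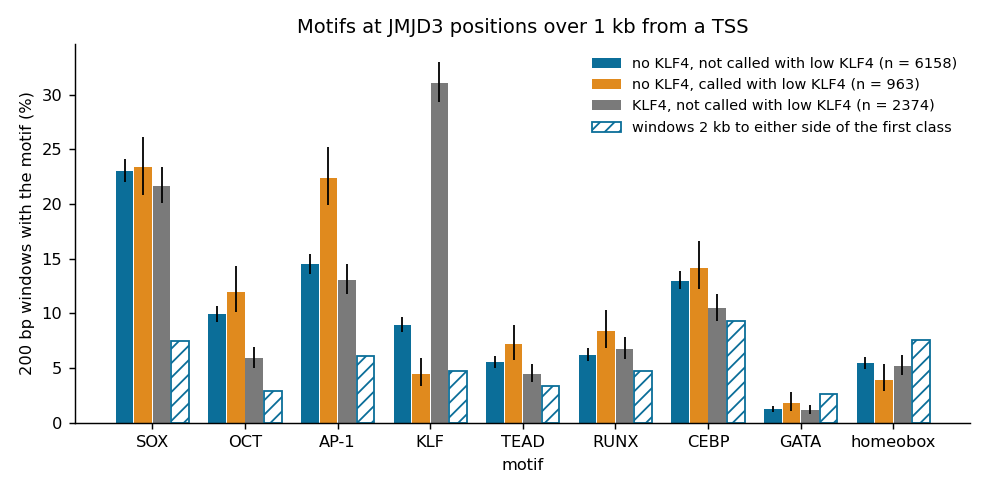
Share of 200 bp windows holding a motif (y axis, percent) for 9 motifs (x axis) at JMJD3 positions over 1 kb from a TSS, for KLF4-apart lost (blue), KLF4-apart kept (orange) and KLF4-near lost positions (grey) with 95% Wilson intervals, and in flanks of the KLF4-apart lost positions (hatched). SOX is near 23% in all classes and 7.44% in flanks, while AP-1 is highest in orange and KLF in grey.

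Compared class by class over distal windows, so that promoters do not enter, the SOX share of KLF4-apart lost positions was within counting error of both other classes. The difference was -0.321 points from the kept ones (-3.28 to 2.46) and 1.35 points from the KLF4-near lost ones (-0.643 to 3.28). OCT was 4.06 points (2.81 to 5.23) higher than at KLF4-near lost positions and differed by -2.09 points from KLF4-apart kept ones (-4.41 to -0.0340). AP-1 differed between the lost and kept KLF4-apart positions, at 14.5% against 22.4%, a difference of -7.93 points (-10.8 to -5.25). TEAD (TGGAATG) and RUNX (TGTGGTT) motifs, both of factors active in fibroblasts, followed AP-1, at 5.55% against 7.17% and 6.24% against 8.41%. The RUNX difference was -2.18 points (-4.18 to -0.463) and the TEAD difference -1.61 (-3.50 to -0.0287). KLF went the other way. Neither class had a KLF4 midpoint within 400 bp, and the motif was in 8.96% of distal KLF4-apart lost windows and 4.47% of kept ones, 4.50 points (2.85 to 5.85) higher. At distal KLF4-near lost positions it was in 31.1%, which the choice by KLF4 peaks bears on. Motifs of GATA factors (AGATAAG) and homeobox factors (TAATTA) were below the flanks, at 1.25% against 2.67% and 5.46% against 7.54%. Of the other motifs searched, CEBP (TTGCNNAA) was in 13.0% of distal windows against 9.27% in flanks and 9.38% of the genome, STAT (TTCCNGGAA) in 0.779% against 0.479%, E-box (CACGTG) in 1.01% against 2.12%, CRE (TGACGTCA) in 0.162% against 0.154%, and a TG repeat of 8 copies in 1.56% against 2.60%. The full palindromic NFI motif was in 2 windows. TEAD was in 3.26%, RUNX in 4.67%, GATA in 2.94% and homeobox in 7.20% of genome windows.

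The KLF motif share fell with distance from KLF4 peaks, and so did the share within 1 kb of a TSS. It was 15.6% (13.2 to 18.4) in the 748 positions 401 to 1000 bp from a KLF4 midpoint, 77.9% of which lay within 1 kb of a TSS. It was 13.4% (11.7 to 15.4) at 1 to 10 kb, where 24.1% were within 1 kb of a TSS, 9.24% (8.08 to 10.5) at 10 to 50 kb, where fewer were, and 8.03% (7.19 to 8.96) in the 3612 positions over 50 kb away, of which 9.99% were within 1 kb of a TSS. SOX took the opposite course, from 9.36% in the closest bin to 21.5% in the farthest, and OCT from 1.74% to 9.94%.

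Matches gathered at the position itself. Over the 6158 distal positions, 965 SOX matches lay within 50 bp of the position, 3.89 times the mean of 248 in the 50 bp steps between 500 and 1000 bp. The ratio was 3.78 for OCT (385 matches), 2.56 for AP-1 (518) and 1.63 for KLF (306). For KLF4-apart kept positions KLF had no such peak, with a ratio of 0.657 from 19 matches, and the ratios were higher for OCT (5.94 from 79 matches) and AP-1 (3.90). At KLF4-near lost positions the KLF ratio was 5.87.

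**Figure D3:**
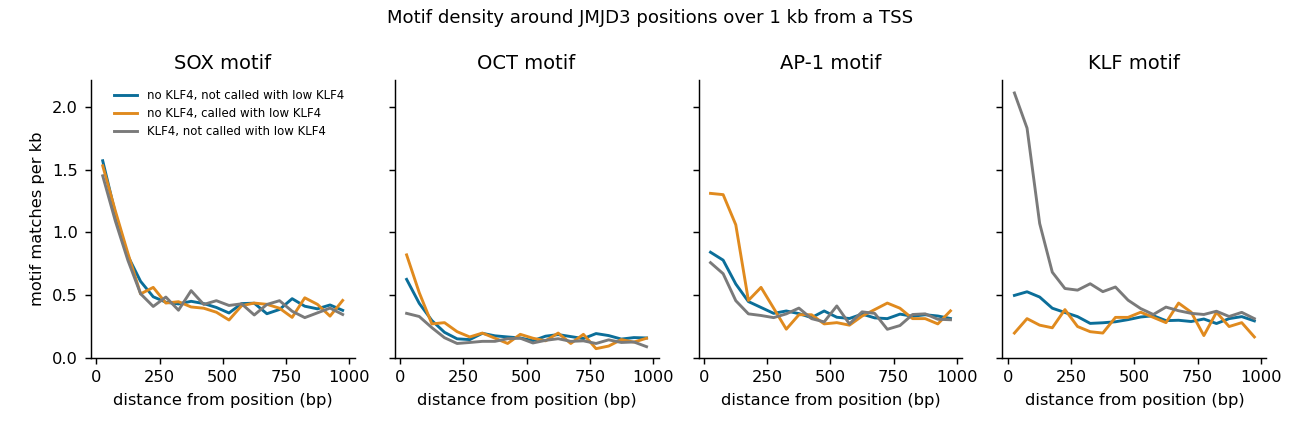
Motif matches per kb (y axis) against distance from the JMJD3 position in 50 bp steps (x axis, bp) for 4 motifs at positions over 1 kb from a TSS, with KLF4-apart lost in blue, KLF4-apart kept in orange and KLF4-near lost in grey. SOX, OCT and AP-1 rise toward the position in every class, and KLF rises steeply only in grey, weakly in blue and not in orange.

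A ranking of all words of 7 letters, added after the data were seen and given with no test, led to the same families. Of the 774 words found in at least 5% of the distal windows, the first by ratio to the flanks was ACAATAG, in 9.95% against 2.48%, a ratio of 4.01. It is a SOX-like word that the fixed motif does not contain. ACAATGG and ACAAAGG, the fixed SOX letters read on the other strand, had ratios of 3.27 and 3.17. The OCT-like ATGCAAA was in 13.4% against 4.87%, TGACTCA (AP-1) in 9.48% against 3.47%, and the KLF-like CACACCC in 9.01% against 3.29%. SOX and OCT matches met in the same window in 127 positions (1.63%), against 0.539% of KLF4-near lost and 2.84% of KLF4-apart kept positions. The composite in 15 windows is 0.192%, against 0.0384% in flanks and 0.0219% of genome windows. None of the 1197 kept windows held it, a difference of 0.192 points with an interval of -0.136 to 0.317.

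Each position was then given the protein-coding gene with the nearest start. In all, 4424 of 21827 protein-coding genes (20.3%) were the nearest gene of at least 1 KLF4-apart lost position, and 751 (3.44%) of at least 3. Nearest genes are a naming by distance, and genes with wide intergenic space collect more positions. A named position was over 400 bp from every KLF4 midpoint, but could lie within 1000 bp of one, as 9.59% of the positions did. The 10 genes with most positions were Zfp608 (19), Efnb2 (18), Klf6 (16), Zeb2 (14), Adgrl3, Marcks and Mat2b (13 each), and Epha7, Tbl1xr1 and Tenm4 (12 each). Zfp608 encodes a zinc finger protein, Efnb2 the ligand ephrin-B2, Zeb2 a repressor of epithelial genes, Marcks a membrane-bound actin regulator, Epha7 an ephrin receptor, Tbl1xr1 a co-repressor subunit, and Adgrl3 and Tenm4 adhesion receptors of neurons. Several of these neighbour very wide intergenic regions: the positions of Efnb2 reached 1529225 bp and those of Mat2b 1686793 bp away. Counted by distance from the gene body, whichever gene was nearest, within 50 kb were 8 positions at Zfp608 and Tenm4, 5 at Marcks, 4 at Efnb2 and Klf6, 3 at Zeb2 and Adgrl3, 1 at Mat2b and Tbl1xr1, and 0 at Epha7. At Adgrl3 H3K27me3 was called at a start (within 5 kb of any TSS, here and for the genes below) in all 8 OSKM lists and in neither MEF list, and at Tenm4 in WT MEFs only. The other 8 genes had none in any of the 10 lists.

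Gene lists were used to describe pathways, beside 20.3% of all protein-coding genes. The lists were chosen with results of these data known, and the study had itself named neural, WNT and JNK gene categories on these samples, so the counts are not independent evidence. The 7 lists of signalling genes were all above this share, but so was every other list except the Hox genes, so this does not set signalling genes apart. In the TGF-beta and Bmp list 28 of 39 genes (71.8%) were the nearest gene of a position, in the axon guidance list 32 of 55 (58.2%), in the Notch list 12 of 23 (52.2%), in the Fgf list 17 of 34 (50.0%), in the Hippo list 10 of 20 (50.0%), in the hedgehog list 7 of 15 (46.7%) and in the Wnt list 26 of 62 (41.9%). The median number of positions per gene was 1.00 in the TGF-beta and Bmp, axon guidance and Notch lists and 0 over all genes. The 7 lists were also above the 16.2% of all genes for KLF4-near lost positions, with 51.3% in the TGF-beta and Bmp list and 47.3% in the axon guidance list. Counting a gene when a position lay within 50 kb of it gave 64.1% of the TGF-beta and Bmp list and 69.1% of the axon guidance list, beside 34.7% of all genes. It gave 64.7% of the Fgf, 60.0% of the Hippo and of the hedgehog, 52.2% of the Notch and 48.4% of the Wnt list.

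Within the TGF-beta and Bmp list, which passes signals from secreted ligands to SMAD proteins, the ligand gene Bmp2 had 7 positions, all at least 80795 bp away. Id4, an inhibitor of bHLH factors, had 6, the closest 41 bp upstream of the start. Inhba, an activin subunit, had 5 at 110603 bp or more. The activin receptor gene Acvr2a had 4, one of them in an intron 1872 bp downstream of a start, with SOX and KLF matches. At Bmp2 H3K27me3 was called at a start in every list but day 10 WT JMJD3, and at the other 3 genes in none.

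In the hedgehog list the receptor gene Ptch1 had 6 positions, 4 of them within 1 kb of a TSS, and the closest ones, 590 and 667 bp from a start, held KLF matches. The effector gene Gli3 also had 6, from 120 bp downstream of a start, and Gas1, a co-receptor, had 1 at 89 bp. In the Wnt list, Tcf7l2 had 5 positions within 27440 bp of a start, the ligand gene Wnt5a had 4 from 1568 bp on, of which 2 held AP-1, and the receptor genes Fzd1 and Fzd8 had 4 and 3, none closer than 31051 bp. Wnt5a had an H3K27me3 peak at its TSS in the day 5 KO FLAG and day 10 WT FLAG lists, and in neither matching JMJD3 list. Some named genes went the other way, with a peak in a JMJD3 list and none in the matching FLAG list. Among them were Gas1 and Nr2f1 in day 10 KO cells, Tfcp2l1 and Med13l in day 5 KO cells, and Pou3f2 in day 5 WT cells. In the Notch list the co-activator genes Maml2 and Maml3 had 4 each, and Hes1 (the classic Notch target) and Jag1 (a ligand) 3 each. Fgf14, Fgf9, Fgfr1 and Spred2 had 4 each, and 3 of the 4 at Fgf9 held OCT. In the Hippo list the DNA-binding factor Tead1 had 6 positions, of which 2 held SOX, and its co-activator Yap1 had 2.

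In the JNK and AP-1 list 13 of 32 genes (40.6%) were nearest genes, against 43.8% for KLF4-near lost positions. Map3k7 (the kinase TAK1) had 6 positions, all at least 159194 bp away. Jun had 5, one of them 559 bp upstream with a KLF match, Mapk10 had 4 within 34480 bp and Fos 3 within 13071 bp. The Fos positions lay 457 to 1079 bp from a KLF4 midpoint. None of these 4 genes had H3K27me3 at a start in any list.

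In the list of neural transcription factors 27 of 66 (40.9%, 29.9 to 53.0) were nearest genes of KLF4-apart lost positions and 11 (16.7%) of KLF4-near lost ones, beside 20.3% and 16.2% of all genes. Within 50 kb of the gene the KLF4-apart share was 36.4%, beside 34.7% of all genes. Nfib had 6 positions, 2 within 1 kb of a TSS, Nr2f1 had 6, Nr2f2 5, one of them 126 bp downstream of a start, and Lmx1a 3. In the axon guidance list Efnb2 (18), Epha7 (12), Efna5 (10) and Dcc (6) led, and the closest Efna5 position lay 76 bp downstream of a start.

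Among transcription factor families 15 of 26 Klf and Sp genes (57.7%), 9 of 19 Sox genes (47.4%) and 5 of 15 Pou genes (33.3%) were nearest genes. The interval of the Pou share (15.2 to 58.3) includes the 20.3% of all genes. Within 50 kb of a position were 61.5%, 42.1% and 46.7% of the 3 lists, beside 34.7% of all genes. Besides Klf6 (16), Klf7 had 6, Klf12 4 and Klf4 4, of which 1 lay 80 bp upstream of the Klf4 start and 3 held SOX. Sox6 had 9 positions, all within 367114 bp, Sox11 and Sox9 had 6 and Sox5 had 4. Pou3f2 had 4, the closest at 79662 bp, and Pou4f1 2. Only 3 of 39 Hox genes were nearest genes, among them Hoxd3 with 2 positions and Hoxc8 with 1, although 24 (61.5%) had a position within 50 kb, since the genes stand side by side. Both Hoxd3 positions held SOX, at 90 and 2988 bp.

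In the pluripotency list 14 of 33 genes (42.4%) were nearest genes, against 39.4% for KLF4-near lost positions, and 36.4% had a position within 50 kb, beside 34.7% of all genes. Mycn had 5 positions, one 99 bp upstream and 548 bp from a KLF4 midpoint. Sall1 had 5 from 37427 bp on, and Tfcp2l1 3, the closest 2286 bp upstream and 2264 bp from a KLF4 midpoint. In the epithelial list the count was 9 of 32 (28.1%, 15.6 to 45.4), whose interval includes the 20.3% of all genes, while 16 (50.0%) had a position within 50 kb, beside 34.7%. Dsp, which encodes desmoplakin of the desmosome, had 3 positions within 5194 bp, which lay 669 to 1478 bp from a KLF4 midpoint. Cdh1 (E-cadherin) had 2, at 3587 bp upstream and in an intron at 28486 bp with SOX. Their nearest KLF4 midpoints were 32899 and 798 bp away. Dsg2 had 2 and Dsc2 had 1. In the fibroblast and mesenchymal list 16 of 34 (47.1%) were nearest genes, led by Zeb2 (14), Cdh2 (N-cadherin, 11), Thbs1 (5) and Ccn1 (3, all within 3865 bp).

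Cell cycle inhibitors and senescence genes counted 9 of 22 (40.9%), and 36.4% had a position within 50 kb, beside 34.7% of all genes. The list was led by Hmga2 at 6, Igfbp7 and Rb1 at 3 and Cdkn1a at 2. Polycomb and H3K27 demethylase genes counted 16 of 34 (47.1%). There Bcor and Jarid2, subunits of Polycomb complexes, had 6 each, and Rybp and Kdm6b had 4 each. Cohesin and mediator genes counted 9 of 24 (37.5%), with Med13l at 5 and Ccnt2, Med13 and Pds5b at 2.

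Few KLF4-apart lost positions had H3K27me3 nearby, and the shares within 5 kb were a little below those over all JMJD3 positions. In day 5 WT cells with FLAG, 16 of 7803 (0.205%) lay inside an H3K27me3 peak, 244 (3.13%, 2.76 to 3.54) within 5 kb of one and 1302 (16.7%) within 50 kb. Over all JMJD3 positions the shares were 0.306%, 3.40% and 18.6%. With JMJD3, 4 lay inside a peak and 115 (1.47%, 1.23 to 1.77) within 5 kb. The JMJD3 list held fewer peaks in WT cells at day 5 (5064 against 6428) and day 10 (3045 against 5131). It also held fewer in KO cells at day 10 (4878 against 5376), and more in KO cells at day 5 (6539 against 5643). Levels are therefore compared between classes within a list. Within 5 kb in the FLAG list the share was 0.648 points below KLF4-near lost positions (-1.35 to 0.0148) and 0.549 points below KLF4-apart kept ones (-1.82 to 0.464), both within counting error. In the JMJD3 list it was 1.20 points below the kept ones (-2.30 to -0.373). Within 50 kb in the FLAG list the share was 5.45 points below KLF4-near lost positions (-6.93 to -3.99). In WT MEFs, before the factors, 302 positions (3.87%) were within 5 kb of a peak, a difference of -1.39 points (-2.19 to -0.623) from KLF4-near lost positions. Over all 10 lists 74 positions (0.948%) were inside a peak of at least 1 list and 548 (7.02%) within 5 kb of one.

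**Figure D4:**
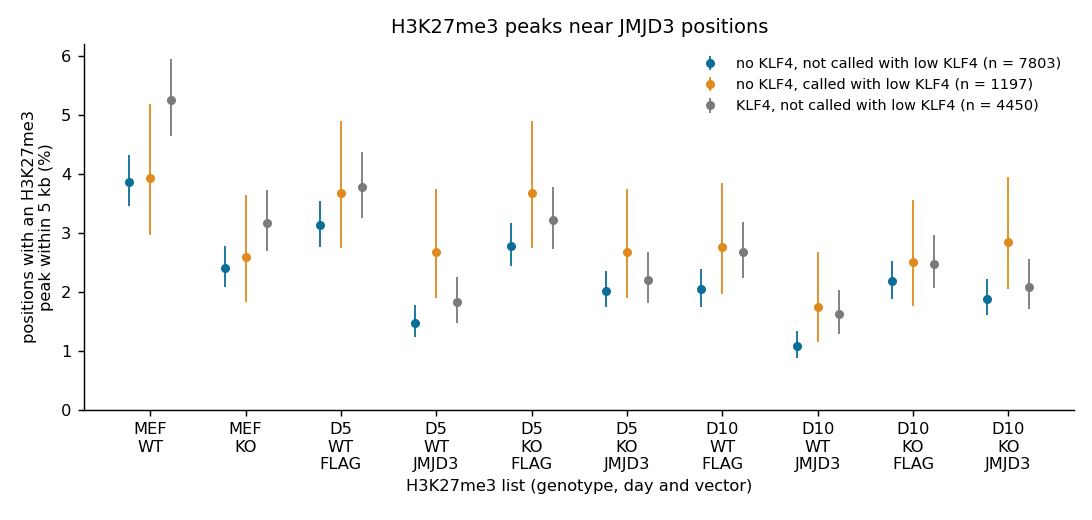
Share of JMJD3 positions with an H3K27me3 peak within 5 kb (y axis, percent) in each of the 10 H3K27me3 lists (x axis), for KLF4-apart lost (blue), KLF4-apart kept (orange) and KLF4-near lost positions (grey), with 95% Wilson intervals. The blue points lie between 1.09% (day 10 WT JMJD3) and 3.87% (WT MEFs) and are the lowest of the 3 classes in every list at this distance, with overlapping intervals in most.

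At genes the shares were below those of all genes. Of the 1783 protein-coding genes with a KLF4-apart lost position within 5 kb of their nearest TSS, 161 (9.03%, 7.79 to 10.4) carried H3K27me3 at a start in the day 5 WT FLAG list, against 14.8% (14.3 to 15.3) of all genes. In WT MEFs the shares were 11.3% and 14.7%. Genes near KLF4-near lost positions only were lower still, at 6.77% in the day 5 WT FLAG list.

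The 16 positions inside a day 5 WT FLAG peak included 8 within 1 kb of a TSS. In order of the peak's score the first 10 had as nearest genes Nol4l (peak score 82.4), Efna3 (69.1), Osbp2 (59.1), Zic5 (54.7), Chrnb2 (23.7), Dsp (16.9), Meis2 (15.2), Barhl1 (15.1), Lrrc7 (15.1) and Habp2 (13.8). Zic5, Meis2 and Barhl1 are developmental transcription factors, Efna3 an ephrin, Chrnb2 a nicotinic receptor subunit and Lrrc7 a protein of synapses. The Osbp2 position, at chr11:3774800 in an intron, was inside a peak in all 10 lists. The Dsp position, 144 bp downstream of the start, was inside a peak in both WT FLAG lists and in neither WT JMJD3 list, and the KO FLAG lists had a peak within 1 kb where the KO JMJD3 lists had none. Other positions did not follow this. The Zic5 position was inside a peak in day 5 KO JMJD3 cells, while the day 5 KO FLAG list had one only within 1 kb. It was inside one in both day 10 WT lists, but the day 5 WT JMJD3 list had none within 1 kb. The Barhl1 position went the other way in day 5 KO cells, inside a JMJD3 peak with no FLAG peak within 1 kb. The Meis2 position, 204946 bp from the nearest Meis2 start, was inside a peak in WT MEFs and both day 5 FLAG lists and within 1 kb of none in the 4 JMJD3 lists or the day 10 FLAG lists. Of the 16, 3 were inside a peak of the day 5 WT JMJD3 list and 5 within 1 kb of one. In day 5 KO cells 8 of the 16 were inside a FLAG peak and 6 inside a JMJD3 peak. The 16 were taken by a day 5 WT FLAG peak, so the lower counts elsewhere partly follow from that choice.

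Peaks of H3K27me3 near the positions were no longer called with JMJD3 more often than others at day 5. A peak of the FLAG list counted as lost when no peak of the JMJD3 list of the same genotype and day shared a base with it. In day 5 WT cells 167 of 260 FLAG peaks within 5 kb of a KLF4-apart lost position were lost (64.2%, 58.2 to 69.8), against 45.6% of the other 6168 and 46.4% of all. That is 18.6 points (12.5 to 24.3) more. In KO cells of the same day, whose own Jmjd3 is deleted but which received the same vector, 113 of 217 were lost (52.1%), against 33.1% of the others and 33.8% of all, a difference of 19.0 points (12.3 to 25.7). At day 10 the differences were smaller and within counting error. They were 6.22 points (-1.55 to 13.3) in WT cells, where 59.6% of all FLAG peaks were lost, and 6.95 points (-0.461 to 14.3) in KO cells, where 44.4% were. Whether the days differ was not tested.

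Peaks near the positions had somewhat lower scores, with a median of 11.8 against 13.2 in the day 5 WT list, and low-scoring peaks were lost more often. Within quartiles of the score the direction held in all 4 at day 5. In WT cells the shares lost were 90.7% against 78.2%, 77.6% against 62.4%, 50.7% against 35.4% and 24.5% against 7.00%, from the lowest to the best-scoring quartile. In KO cells the best-scoring quartile held 50 such peaks, of which 4 were lost. Averaged over quartiles the difference was 15.1 points in WT and 16.0 in KO cells. Restricting the peaks to those within 5 kb of a TSS, added after the data were seen, gave differences of 19.5 points (11.8 to 26.8) for WT and 19.3 points (11.4 to 27.5) for KO cells. At day 10 this gave 10.3 points (0.885 to 19.1) for WT and 7.46 points (-0.863 to 16.3) for KO cells. By quartile, day 10 peaks near the positions were lost less often than others in the lowest WT quartile (80.9% against 85.1%) and in the best-scoring KO quartile (4.76% against 7.07%). Of 153 day 5 WT FLAG peaks within 5 kb of KLF4-near lost positions only, 64.1% (56.2 to 71.2) were lost, and of 134 in KO cells 50.7%. At day 10 the shares were 56.4% in WT cells, against 65.6% near KLF4-apart lost positions, and 45.4% in KO cells, against 51.1%.

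**Figure D5:**
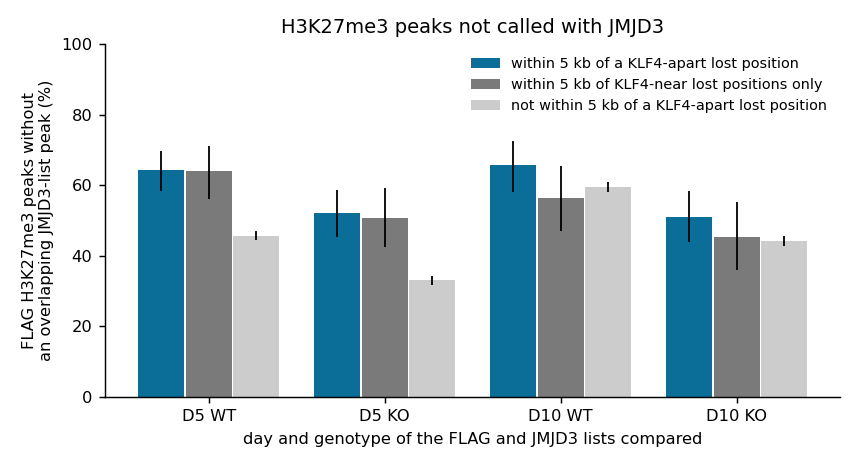
Share of FLAG H3K27me3 peaks with no overlapping peak in the JMJD3 list (y axis, percent) for the 4 pairs of lists (x axis), for peaks within 5 kb of a KLF4-apart lost position (blue), within 5 kb of KLF4-near lost positions only (dark grey) and all not within 5 kb of a KLF4-apart lost position (light grey, which includes the dark grey ones), with 95% Wilson intervals. At day 5 blue stands at 64.2% in WT and 52.1% in KO, above light grey at 45.6% and 33.1%, and at day 10 the intervals of blue and light grey overlap.

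At gene level the day 5 difference was smaller. Of the 161 genes with a KLF4-apart lost position within 5 kb and a day 5 WT FLAG peak at a TSS, 71 (44.1%) had no peak there in the JMJD3 list, against 31.1% of other genes with such a peak, 13.0 points (5.36 to 20.9) more. In KO cells 46 of 143 (32.2%) did, 12.3 points (5.08 to 20.5) more than others. At day 10 the WT difference was 4.49 points (-4.64 to 13.9) and the KO difference 3.24 points (-4.02 to 11.7). Of the 161 genes, 27 were on a gene list, and 12 of these (44.4%) were lost, close to the 44.1% of all 161. Among the 12 were Atf3, Cdh1, Dsp, Fosb, Lfng, Nanog, Nr2f1, Sox6, Sp2, Twist2 and Zic5. Of these, Cdh1 and Dsp are epithelial genes, Atf3 and Fosb members of the AP-1 family and its relatives, and Nanog a pluripotency factor. Among the 15 of the 27 that kept a peak at a start were Mycn, Klf4 and Klf2, the ligand genes Bmp4 and Dll1, Nr2f2 and Pou4f1. The names outside the rules for named genes were chosen after their values were seen. In day 5 KO cells 6 of 22 listed genes (27.3%) were lost, against 32.2% of all 143, among them Atf3, Dsp, Nr2f1 and Sox6 again, and Cdh1 was not.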

How the data were processed

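ChIP-seq peak lists of mouse cells were used as deposited, in mm10 coordinates. The authors aligned reads with Bowtie2 and called peaks with MACS2 for KLF4 and DFilter for H3K27me3. The 10 deposited H3K27me3 lists hold intervals of 1000 bp with a score of 6.56 to 200, whose scale is not given in the sources used here, from libraries with a Drosophila spike-in. The KLF4 lists hold intervals, and the JMJD3 lists single bases, which the authors deposited without saying whether they are summits or midpoints. The lists hold no read counts, so depth is unknown from these files and a list's length may follow it. The study tabulates reads of the H3K27me3 libraries, which were not used here. How far the shorter low-KLF4 list follows from depth was not tested.

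JMJD3 positions were classed by their distance to KLF4 interval midpoints and low-KLF4 positions (400 bp). TSSs, gene bodies, introns and exons came from the GENCODE vM21 basic annotation of GRCm38, and windows from the GRCm38 sequence (200 bp, flanks 2 kb away on both sides). Genes carry the protein-coding gene with the nearest TSS. Sequence was read with samtools 1.23.1 and pysam 0.24.0, and values were computed in Python 3.11.15 with numpy 2.4.6 and scipy 1.17.1 and drawn with matplotlib 3.10.9. Shares have 95% Wilson and differences 95% Newcombe intervals, which cover counting error only. The classification was tested on simulated positions (14000 of 14000 correct) and each motif search on planted copies (300 of 300 found).

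The named genes were the 10 with most positions, the first 4 of each gene list by number of positions and the first 10 positions inside a day 5 WT FLAG H3K27me3 peak by its score; not every one of them is reported here. The positions, the 19 gene lists and the tests were chosen with earlier results of these data known.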

Additional observations from a re-analysis of the deposited data

How the results depend on the processing

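Each group had 1 library, so no replicate could be left out, and no result comes from a test across samples. FLAG and JMJD3 lists were compared within each genotype and day, and no paired test over these comparisons was run. Among the settings tried, no main value changed direction, but several moved by more than their counting interval. With 200 bp in place of 400 bp the positions were 61.3% of the JMJD3 list, with GC 47.6%, 39.0% within 5 kb of a TSS (-12.2 points against KLF4-near lost positions), 22.6% of genes, SOX 18.6% (11.5 above flanks, 2.79 against KLF4-near), OCT 7.61% (3.86), AP-1 11.4% (2.30) and a KLF difference of -16.3. With 1000 bp they were 49.7%, with GC 43.9%, 28.3% within 5 kb (-32.1), 18.2% of genes, SOX 21.1% (13.8 above flanks, 7.34), OCT 8.93% (5.66), AP-1 13.0% (6.78 above flanks, 5.17) and KLF 9.35%. With distance from KLF4 interval edges they were 53.1%, with GC 45.0%, 31.6% within 5 kb (-27.5) and 19.3% of genes, and with the KLF4 list of JMJD3 cells only 58.5% and 21.2% of genes. A TSS within 1 kb gave 21.1% (-25.6), within 10 kb 44.8% (-20.7) and protein-coding TSSs only 26.1%. Genes with a position within 50 kb were 34.7%, and nearest genes within 50 kb 15.2%. Distal windows alone gave SOX 23.0% (1.35), OCT 9.95%, AP-1 14.5% (1.44) and KLF 8.96% (-22.2). Windows of 100 bp gave SOX 11.9% (3.54), OCT 4.68% (2.86), AP-1 6.51% (2.35, and -3.43 against KLF4-apart kept) and KLF 4.91% (-8.24, and 1.82 against kept), and windows of 400 bp SOX 29.2% (7.44), OCT 11.8% (5.91), AP-1 19.2% (6.29), KLF 17.3% (-18.1) and GC 46.3%. A day 5 WT FLAG H3K27me3 peak was over 0.205% of positions, within 1 kb of 0.795%, within 50 kb of 16.7% (-5.45), and within 5 kb of 1.61% with the better-scoring 50% of peaks. Inside a day 10 KO JMJD3 peak, the difference from KLF4-apart kept positions turned to 0.0251 points. In MEFs that difference was -0.0562 (WT) and -0.180 (KO) points within 5 kb, and positive inside the peak (0.269 and 0.0764) and within 50 kb (0.352 and 0.395), each with an interval that includes 0. Peaks within 50 kb of a position were lost in 55.5% (12.2 points above others) for day 5 WT and in 40.5% (9.06) for day 5 KO. Peaks within 5 kb of a TSS, a setting added after seeing the data, were lost in 57.6% and 45.3% at day 5 WT and KO and 40.9% at day 10 KO. The causes were not tested.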
